A study of Drosophila melanogaster with 3 samples.

Results

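Of the 30000 regions in the list called on the pooled YL-1 libraries, 1539 were weaker promoter regions that the reproducibility threshold had left out. They were selected on the authors' own signal value, on their rank by it and on position. The threshold list (irreproducible discovery rate, IDR) held the strongest pooled regions. The 6014 regions that came next, down to rank 12000, were considered here, and 1330 of them (22.1%) overlapped an IDR region by at least 1 bp and were set aside. Of the remaining 4684, the 1539 members had their summit within 250 bp of an annotated transcription start site (TSS) of a protein-coding gene, and 3145 lay farther away. The comparison set was the 4371 IDR regions that met the same promoter rule. Signal, rank and promoter position chose the members, so these are described below without a test.

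YL-1 was mapped by chromatin immunoprecipitation and sequencing in whole Drosophila melanogaster embryos aged 0 to 24 h. All samples belonged to 1 group: 3 biological replicates of a transgenic line that carries YL-1 with GFP at its carboxy terminus, males and females pooled, precipitated with an antibody against GFP. There was no untagged or treated group, all embryonic tissues were mixed, and GFP marks the transgene's product rather than the untagged protein. The files give regions and no read totals, so the depth is unknown and the intervals below cover the counting of regions or genes only.

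YL-1 is a subunit of the chromatin complexes built around the Domino ATPase and the Tip60 acetyltransferase. They place the histone variant H2Av into nucleosomes near gene starts and acetylate histone tails there. Fly promoters fall broadly into types: housekeeping genes often carry the DRE (bound by DREF), motif 1 (bound by M1BP) or motifs 6 and 7, whereas regulated genes often carry an Initiator, a TATA box or sites for the GAGA factor (Trl).

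Promoters of 6 members show the sequence classes that the results below compare. Each runs 5′ to 3′ on the gene's strand, from 120 bases before to 20 bases from the TSS on, and was read from the RefSeq copy of the Release 6 assembly (dm6). Capitals mark every match to a searched motif. The ldbr promoter (chr3L:8121707-8121846, plus strand), of the lariat debranching enzyme, holds a DRE (TATCGATA). The Bmcp promoter (chr3L:11720814-11720953, plus strand), of a mitochondrial carrier, holds motif 1 (GGTCACACT) on the other strand. The CG8159 promoter (chr3R:8726734-8726873, plus strand) holds motif 7 on the other strand and, past the TSS, an Initiator match. The tna promoter (chr3L:10857769-10857908, plus strand) is an internal TSS of tonalli and holds GAGA and an Initiator match. The CG4456 promoter (chr3L:9372602-9372741, plus strand) holds a TATA box. The Prx4 promoter (chr3L:3042239-3042378, plus strand), of a peroxiredoxin, holds none of the 9 motifs searched.
ldbr: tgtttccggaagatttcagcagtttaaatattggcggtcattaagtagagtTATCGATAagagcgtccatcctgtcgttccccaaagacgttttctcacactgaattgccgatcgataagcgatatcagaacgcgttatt
Bmcp: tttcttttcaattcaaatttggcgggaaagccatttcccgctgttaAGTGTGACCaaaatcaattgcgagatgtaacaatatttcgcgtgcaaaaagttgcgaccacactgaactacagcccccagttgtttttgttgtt
CG8159: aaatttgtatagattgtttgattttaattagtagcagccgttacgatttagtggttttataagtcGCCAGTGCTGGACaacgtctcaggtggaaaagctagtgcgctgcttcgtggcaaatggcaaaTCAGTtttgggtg
tna: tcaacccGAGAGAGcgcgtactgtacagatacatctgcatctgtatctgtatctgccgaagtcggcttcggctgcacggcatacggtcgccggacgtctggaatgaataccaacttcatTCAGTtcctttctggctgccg
CG4456: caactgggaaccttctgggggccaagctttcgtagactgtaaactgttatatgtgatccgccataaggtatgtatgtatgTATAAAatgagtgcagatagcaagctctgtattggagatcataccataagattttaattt
Prx4: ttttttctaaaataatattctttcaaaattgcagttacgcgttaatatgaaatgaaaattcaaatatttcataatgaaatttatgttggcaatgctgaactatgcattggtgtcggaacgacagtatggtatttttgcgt

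The members continued the IDR list in signal without a gap. Their signal ran from 73.95 to 137.2 with a median of 100.05, against 137.2 to 1346 with a median of 229.9 at IDR promoter regions. The last IDR region, at CG2200, had a signal of 137.227. The next regions, both members, were at shu with 137.199 and at Prx4 with 137.176. At the other limit, the members at Lcch3 and CG4935 had 73.9557 and 73.9542, and the first promoter region past rank 12000, at Cyp301a1, had 73.9453. The member at CG14777 lay 250 bp from its TSS, and the nearest region outside the window lay 251 bp from the TSS of Stat92E. The authors' −log10 q of members had a median of 2.62 and ran from 1.47 to 4.13. Of the members, 1515 (98.4%) were 500 bp wide, compared with 68.5% of IDR promoter regions. Overlapping members joined into 1387 intervals.

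Promoters became steadily rarer down the ranking. Outside IDR regions, 49.9% of regions ranked 6001 to 7000 lay at a promoter, then 36.96% and 35.1% in the next bins of 1000. The share was 25% at ranks 11001 to 12000 and 7.81% at ranks 29001 to 30000. Promoter windows cover 6.26% of the bases of the arms. Over all 4684 regions from the end of the IDR list to rank 12000 the share was 32.9% (exact binomial 95% interval 31.5% to 34.2%), against 73.0% of IDR regions. By the same rule in each replicate's own list it was 31.6%, 30% and 28.7%, or 30.1% ± 1.43 (SD, n = 3).

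**Figure D1:**
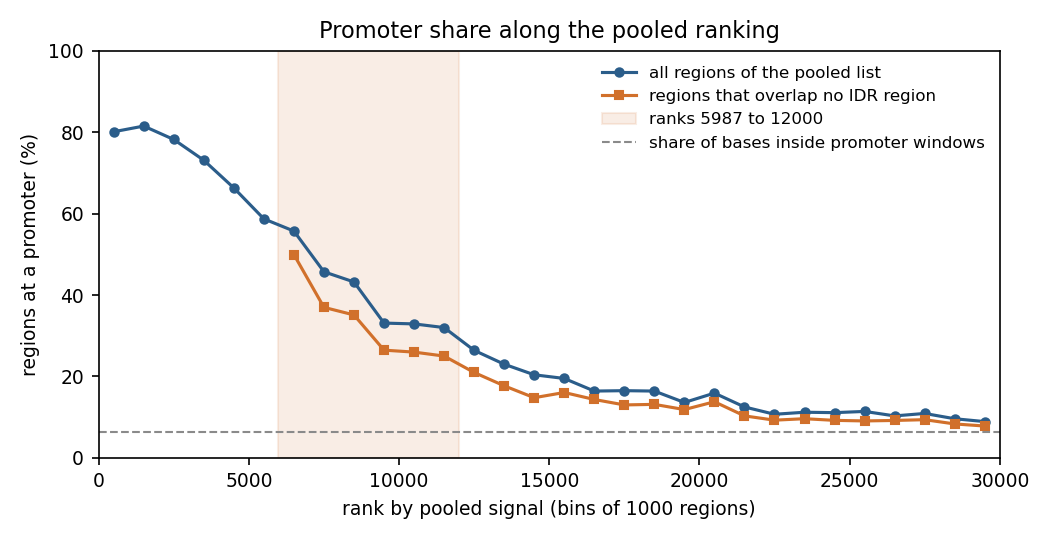
Share of regions with a summit within 250 bp of a protein-coding TSS (%, vertical axis) in bins of 1000 regions by pooled signal rank (horizontal axis), for all regions (circles) and for regions that overlap no IDR region (squares). The shaded band runs from the end of the IDR list to rank 12000; in it the squares go from 49.9% to 25%, and the dashed line is the 6.26% of bases inside promoter windows.

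Most members were listed in every replicate, but at middling ranks. A region of any rank overlapped 1368 members by at least 1 bp in all 3 replicate lists, 166 in 2 and 5 in 1. In replicates 1, 2 and 3, 96.2%, 94.9% and 97.5% of members were listed. For IDR promoter regions the shares were 99.9%, 99.8% and 99.95%. The share listed at any rank is not given here for other regions of these ranks, so it has no background. Their median rank was 7805, 8558 and 8593 in replicates 1, 2 and 3, with a member not listed counted as ranking last. Of the members, 654 (42.5%, exact binomial 95% interval 40.01% to 45.01%) were in the top 12000 of all 3 replicates, 631 in 2, 235 in 1 and 19 in 0. Of all 6014 regions of these ranks, 45.2% were in the top 12000 of all 3. They include the 1330 that overlap an IDR region, which were set aside from the members, so this is not a like-for-like background. The share was 24.5% at the 3145 weaker regions away from promoters and 97.0% at IDR promoter regions. When summits had to lie within 100 bp, 12.9% of members were matched in the top 12000 of all 3 replicates. The replicates are part of the pool that chose the members, so these shares are descriptions. A stricter depth took as many top regions of a replicate as the IDR list holds, called its IDR-sized top below. Of the members, 20 were in the IDR-sized top of all 3 replicates, 199 in 2, 614 in 1 and 706 in 0. Replicate 1 placed 29.2% of members in it, replicate 2 placed 23.7% and replicate 3 placed 16.8%. They placed 91.4%, 88.97% and 92.4% of IDR promoter regions in it, and no such share is given here for other regions of these ranks.

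**Figure D2:**
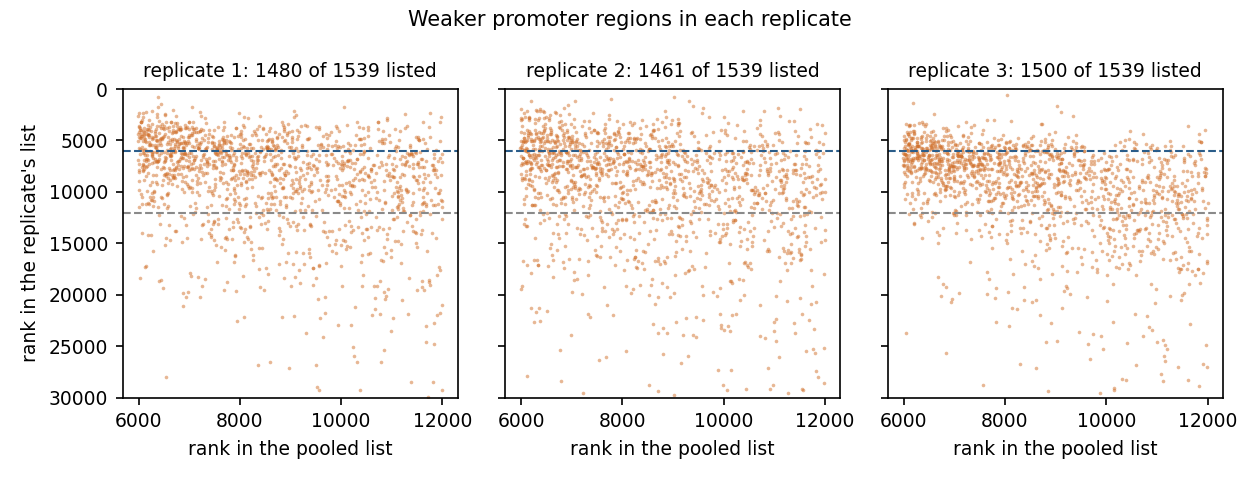
Rank of each member in the list of replicate 1, 2 or 3 (vertical axis, strongest at the top) against its rank in the pooled list (horizontal axis). Dashed lines mark the end of the IDR-sized top and rank 12000, and 77.8%, 71.3% and 75.6% of members lie above the lower line in replicates 1, 2 and 3.

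The strongest members by pooled signal lay at genes of varied function. The region at shu, which encodes a co-chaperone of the piRNA pathway, lay on 2R from 23843103 to 23843602 with its summit 67 bp upstream of the TSS. It had rank 6937 in replicate 1, 5732 in replicate 2 and 7394 in replicate 3. The region at Prx4 had ranks 5077, 5039 and 6671. These members ranked alike in the 3 lists. The region at HDAC4, a histone deacetylase, did not: its ranks were 2578, 19397 and 6205, so replicate 2 placed it far below the others. The region at sxc, the O-GlcNAc transferase of Polycomb repression, had ranks 4358, 7393 and 6309 and lay 56544 bp from the nearest IDR summit. The region at CG13551 had ranks 7304, 1953 and 8057, with replicate 2 the high list. The region at ldbr had ranks 9796, 4215 and 7459, and that at CG8159 had 5730, 6537 and 6942. The region at tara, an internal promoter in an intron as annotated, had ranks 4154, 2980 and 9240, with replicate 3 the low list. The region at Plekhm1 had ranks 3631, 8234 and 7022 and carried a DRE and motif 1.

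Members with the best worst rank over the replicates included several beside IDR summits. The region at CG42724 had ranks 2549, 2906 and 2229, well above its pooled rank of 9106, and lay 227 bp from an IDR summit. The region at sqd, an RNA-binding protein of the oocyte, had ranks 3456, 1138 and 1336 and lay 236 bp from one. Those at CG31523 and P5cr-2, a proline synthesis enzyme, lay 303 bp and 355 bp away. Both regions at CtBP, a transcriptional corepressor, lay under 500 bp away. A replicate region that overlaps such a member can be the one under the IDR peak. Within 500 bp of an IDR summit lay 15 members, of which 7 were in the IDR-sized top of all 3 replicates, compared with 13 of the other 1524. Farther from IDR summits, LIMK1, the kinase that phosphorylates cofilin, had ranks 2426, 4134 and 4587 at 9044 bp. Both regions at Acsl, a long-chain acyl-CoA synthetase, shared the ranks 5040, 2724 and 4415, so 1 region in each replicate list served both. Rox8, an RNA-binding protein, had ranks 3209, 4357 and 4345 at 1139 bp, although its pooled rank was 10724. The median member lay 4084 bp from an IDR summit, and 169 (10.98%) lay within 1000 bp.

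Of the weakest members, several were uneven between replicates. The region at Lcch3, a subunit of ligand-gated chloride channels, had ranks 20947, 10027 and 16728. That at nuf, a Rab11 partner, had 6358, 4243 and 13192, so replicates 1 and 2 placed it far above its pooled rank of 11990. The region at nudC, a dynein regulator, had ranks 11488, 13670 and 12748, alike in the 3 lists. That at fan had 10870, 8771 and 12492. The region at CG4935, which also lies within 250 bp of a TSS of twe, had 7086, 14704 and 11104.

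Summits of members centred on the TSS but spread wider than those of IDR regions. The median offset was 6 bp downstream of the nearest TSS, with quartiles at 76 bp on either side, against 2 bp downstream at IDR promoter regions. The median distance, ignoring side, was 76 bp at members and 59 bp at IDR promoter regions. In the replicates' own lists it was 79.7 bp ± 2.08 at weaker and 63.8 bp ± 6.33 at top promoter regions (SD, n = 3). Distance to the TSS was part of the selection, so these values are a description. Ranking by the mean over the replicate lists left medians of 78 bp and 75 bp, and 76.5 bp and 76 bp without replicate 1, so the gap was small by that ranking. The summit lay within 100 bp of the TSS for 927 members (60.2%), against 68.9% of IDR promoter regions. It fell in an exon outside the coding sequence for 699 members, between genes for 465, in an intron for 258 and in a coding exon for 117. The deposited summit of 1516 members (98.5%) was the midpoint of the region to within 1 bp.

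Members served a pair of promoters less often than IDR promoter regions did. More than 1 gene had a TSS within 250 bp of the summit at 122 members (7.93%), against 26.3% of IDR promoter regions. Along the pooled ranking the share was 39.3% of promoter regions in the top 1500. It was 4.04% at ranks 22001 to 30000, for promoter regions that overlap no IDR region. Each replicate's own ranks gave 8.88% ± 0.748 at weaker and 25.5% ± 1.25 at top promoter regions, lower by 16.6 points ± 1.90 (SD, n = 3) and in 3 of 3 replicates. The exact two-sided sign-flip permutation test over 3 replicates gave p = 0.25, the smallest p it allows. Only internal TSSs of a gene lay within the window of 372 members (24.2%), compared with 12.2% of IDR promoter regions. The replicates' own values were 23.9% ± 1.31 and 13.3% ± 0.844, a difference of 10.6 points ± 1.22 in 3 of 3 (p = 0.25, exact sign-flip permutation). For 113 of the 372 the nearest gene had an IDR summit at another of its TSSs. The 13945 protein-coding genes have 19253 annotated TSS positions, so internal TSSs are common. Shares over all TSSs are not given here for pairs or for internal TSSs. These values therefore do not tell whether members or IDR promoter regions depart from the annotation.

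Motifs of housekeeping promoters were rarer at members than at IDR promoter regions. They were sought from 250 bases before to 50 bases after the TSS nearest each summit. A DRE match was present at 182 members (11.8%), against 18.4% of IDR promoter regions and 7.98% of all 19253 protein-coding TSSs. In the replicates' own lists the DRE share was 11.02%, 12.6% and 11.1% at weaker promoter regions and 17.5%, 17.8% and 18.5% at top ones. The groups did not overlap, and the difference was -6.35 points ± 1.08 (SD, n = 3). Motif 1 was present at 101 members (6.56%), against 14.2% of IDR promoter regions. That was close to the 5.23% of all TSSs. The motif 1 difference in the replicates was -6.41 points ± 0.530. Motif 7 was present at 162 members (10.5%), against 18.4% of IDR promoter regions and 8.59% of all TSSs, and differed by -7.72 points ± 0.690. Motif 6 was present at 54 members (3.51%), against 4.39% and 1.93%, and differed by -1.47 points ± 0.259. DRE matches at members had a median start at -44 bases from the TSS, with negative values upstream. At least 1 of these 4 motifs was present at 28.0% of members, 45.7% of IDR promoter regions and 20.3% of all TSSs.

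Motifs of regulated promoters were more frequent at members than at IDR promoter regions. The GAGA motif, searched as GAGAGAG on both strands like the motifs above, was present at 193 members (12.5%), against 4.67% of IDR promoter regions and 7.62% of all TSSs. By each replicate's own ranks its share was 12.3%, 11.6% and 11.5% at weaker promoter regions and 5.75%, 5.77% and 4.54% at top ones. These groups did not overlap either, with a difference of 6.43 points ± 0.564 (SD, n = 3). An Initiator match (TCAGT), on the gene's strand and starting within 10 bases of the TSS, was present at 243 members (15.8%). That was more than the 6.70% of IDR promoter regions, by 9.03 points ± 1.19 in the replicates, and near the 14.1% of all TSSs. A TATA box (TATAAA), starting 45 to 15 bases before the TSS, was present at 61 members (3.96%), against 2.06% of IDR promoter regions. Both were below the 8.06% of all TSSs, and the difference in the replicates was 1.02 points ± 0.558. The median GAGA match at members started at -100.5 bases by the same count. The Zelda motif (CAGGTAG) was present at 24 members (1.56%), near the 1.69% of all TSSs and the 1.10% of IDR promoter regions. The E-box (CAGCTG) was present at 332 members (21.6%), against 23.9% and 17.9%, and its difference of -1.11 points ± 2.34 was within the spread between replicates. For the E-box the exact sign-flip permutation test gave p = 0.5, and for each of the other 8 motifs, with all 3 replicates on 1 side, p = 0.25.

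**Figure D3:**
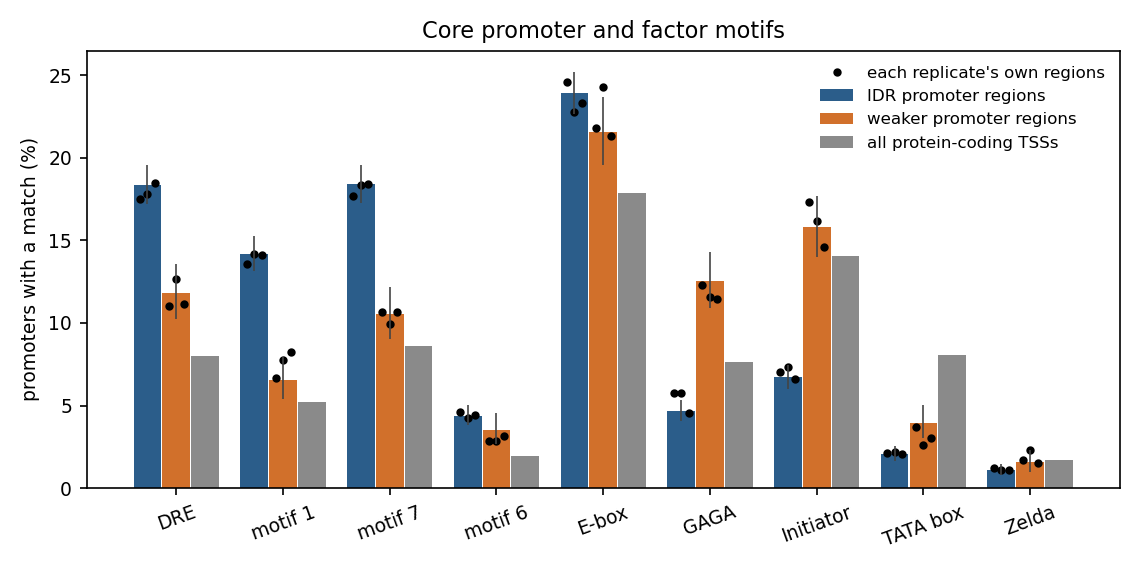
Share of promoters with a motif match (%, vertical axis) at IDR promoter regions, weaker promoter regions and all protein-coding TSSs, by motif. Error bars are exact binomial 95% intervals over regions and dots are each replicate's own top or weaker regions. DRE, motif 1 and motif 7 are lower at weaker regions (11.8%, 6.56% and 10.5%) than at IDR regions, and GAGA and Initiator are higher (12.5% and 15.8%).

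Along the ranking, the members lay where the promoter types crossed. DRE matches went from 17.1% of promoter regions in the last bin of the IDR list, past rank 4500, to 15.4% from its end to rank 8000, 9.70% from there to rank 10000 and 8.75% from there to rank 12000. Motif 1 went from 11.6% through 8.10% and 5.70% to 5.20% over the same bins. GAGA went the other way, from 6.96% through 10.3% and 14.1% to 14.2%. The Initiator went from 8.84% through 13.9% and 19.2% to 14.9%. It was higher again past rank 12000, at 20.1%, 22.5% and 21.9% in the bins down to rank 30000. The share with more than 1 gene in the window went from 15.8% through 8.72% and 8.65% to 5.91%. Past the IDR list the bins hold only promoter regions that overlap no IDR region.

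**Figure D4:**
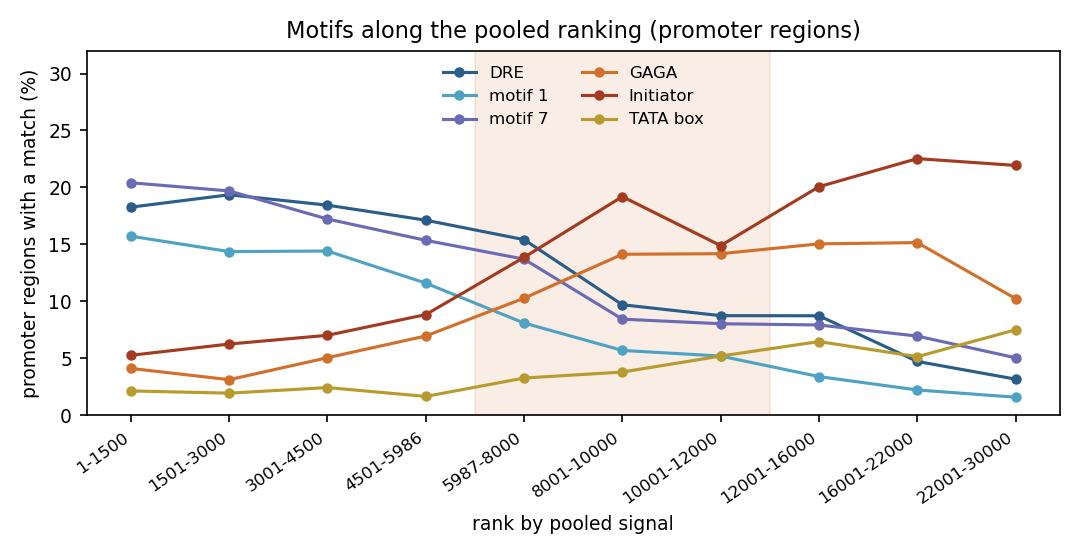
Share of promoter regions with a match (%, vertical axis) for 6 motifs in bins of pooled rank (horizontal axis); past the IDR list regions that overlap an IDR region are left out. In the shaded bins, which hold the members, DRE goes from 15.4% to 8.75% and GAGA from 10.3% to 14.2%.

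Members at internal TSSs differed in motifs from those at the most upstream TSS of a gene, as did IDR promoter regions. GAGA was present at 96 of 372 internal members (25.8%) and at 97 of the other 1167 (8.31%). Among the replicates' own weaker regions the shares were 21.3% ± 0.981 and 8.80% ± 0.464, a difference of 12.5 points ± 1.32 (SD, n = 3). The tna promoter printed above belongs to this class. The Initiator was present at 23.1% of internal and 13.5% of other members, with a difference of 8.26 points ± 2.06 in the replicates. A DRE was present at 10 internal members (2.69%) and at 172 others (14.7%), with a difference of -10.2 points ± 1.89. Each of these differences had the same sign in 3 of 3 replicates (p = 0.25, exact sign-flip permutation). At the most upstream TSSs alone, GAGA was present at 8.31% of members and 3.08% of IDR promoter regions, with a difference of 5.36 points ± 0.571 in the replicates. A DRE was present there at 14.7% and 19.6%, with a difference of -5.49 points ± 0.651. IDR promoter regions at internal TSSs had GAGA at 16.1%, the Initiator at 13.3% and a DRE at 9.53%. Those at most upstream TSSs had 3.08%, 5.79% and 19.6%. Motif shares over all annotated internal or most upstream TSSs are not given here. Whether the contrast is particular to bound promoters was not tested.

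The X chromosome held more of the members than of the IDR promoter regions. Of the members, 322 (20.9%) lay on X, against 14.8% of IDR promoter regions. In the replicates' own lists the share was 20.8%, 20.8% and 21.5% at weaker and 14.4%, 14.6% and 14.6% at top promoter regions, a difference of 6.51 points ± 0.355 (SD, n = 3; p = 0.25, exact sign-flip permutation). The contrast was largest against the strongest IDR regions. X held 9.14% of promoter regions in the top 1500, 14.5% of those down to rank 3000, 18.2% down to rank 4500 and 18.9% in the last bin of the IDR list. The 3 bins of members had 20.4% to 21.7%, and those past rank 12000 had 17.2% to 20.3%. X carries 2196 of the 13945 protein-coding genes. The other members lay on 3R (337), 2R (329), 3L (275), 2L (258) and chromosome 4 (18). X members carried a DRE more often than the rest (18.9% against 9.94%) and GAGA and the Initiator less often (9.01% against 13.5%, and 9.63% against 17.4%), values given as a description. Over all TSSs the DRE was also more frequent on X, at 11.2% against 7.31%, and the Initiator less, at 12.1% against 14.5%. GAGA differed little there, at 7.97% against 7.55%. At IDR promoter regions both the DRE (22.4% against 17.7%) and GAGA (6.48% against 4.35%) were more frequent on X. The Initiator was less frequent there, at 5.71% against 6.88%. X members had median ranks of 7908.5, 8303 and 8170.5 in replicates 1, 2 and 3, and the others 7797, 8588 and 8693.

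The members reached 1454 protein-coding genes. Of these, 175 also had an IDR summit within 250 bp of a TSS and 1279 had none, which is 9.17% of the 13945 protein-coding genes. IDR summits marked 4655 genes (33.4%), and 8011 genes had neither. Each replicate's own ranks gave 1276, 1259 and 1188 such genes with a weaker region only, or 1241 ± 46.7 (SD, n = 3). These genes were long, with a median length of 3228 bp, compared with 2765 bp for genes with an IDR summit and 1752 bp for genes with neither. The replicates' values were 3144 bp ± 151, 2800 bp ± 57.1 and 1768 bp ± 14.9. More of them had several annotated TSSs (41.05%, against 35.6% and 18.9%), and each further TSS adds a window in which a summit can fall. Symbols that are only a CG number were held by 459 of them (35.9%), against 28.1% of genes with an IDR summit and 54.1% of genes with neither. On X, 12.2% of genes had a weaker region only (replicates 12.2% ± 0.115), against 8.60% on the other arms, and on chromosome 4 it was 14 of 80.

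In the lists of cell division and DNA repair the weaker class took a larger share than among all genes. Of 38 cell cycle and replication genes, 26 had an IDR summit, 9 a weaker promoter region only and 3 neither, so 23.7% (exact binomial 95% interval 11.4% to 40.2%) were in the weaker class, against 9.17% of all genes. The replicates gave 19.3% ± 5.48 (SD, n = 3). PCNA, the sliding clamp of replication, had a region 33 bp from its TSS with ranks 11336, 2893 and 5540 and carried a DRE. RnrL, the large subunit of ribonucleotide reductase, had ranks 6223, 7633 and 7646. Orc4, of the origin recognition complex, had 7006, 7006 and 7239, close together in all 3 lists. Rbf, the retinoblastoma protein, had ranks 4664, 16096 and 7447, with replicate 2 the low list. The others were CycE, CycD, Cdk4, fzr and twe, which drive or time the cell cycle. Of 32 DNA repair genes, 19 had an IDR summit and 8 (25%) a weaker region only, at 19.8% ± 3.61 in the replicates. Among them were the mismatch repair gene Pms2, the Fanconi genes FANCI and Fancd2, the end-joining genes DNAlig4 and Ku80, and Rad1 and nbs. Pms2 had ranks 3930, 8254 and 6914.

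Genes of general cell machinery were mostly in the IDR class already. Over 13 lists with 542 genes, 381 (70.3%) had an IDR summit, 42 (7.75%) a weaker region only and 119 neither. Among all genes, 33.4% had an IDR summit and 9.17% a weaker region only. A gene with an IDR summit cannot be in the weaker class. Of the genes without one, 42 were in that class and 119 were not, whereas 13.8% of all genes without one were in it. The replicates put 7.75% ± 0.976 of the 542 genes in the weaker class, against 8.90% ± 0.335 of all genes. Of 85 cytoplasmic ribosomal protein genes, 79 had an IDR summit, and the 3 with a weaker region only were RpS5b, RpS15Ab and RpL15. RpL15 lay 2146483 bp from the nearest IDR summit and had ranks 5273, 7152 and 9560. Of 73 mitochondrial ribosomal protein genes, 57 had an IDR summit and 8 (10.96%) a weaker region only, led by mRpL45 with ranks 3659, 5486 and 10698. Of 28 Rab genes, which encode GTPases of vesicle traffic, 6 (21.4%) were in the weaker class. Rab35, RabX6 and Rab27 each had a DRE, and Rab3, which acts at synapses, had none of the motifs. Aminoacyl-tRNA synthetases had 4 of 33, among them the mitochondrial enzymes IleRS-m and ProRS-m. The proteasome had 1 of 32, Rpn8, whose region lay 226 bp from an IDR summit. A single region at 3L, near CG4456, lay within 250 bp of TSSs of the heat shock genes Hsp22 and Hsp67Bc, with ranks 4552, 4804 and 10231. Of the 42 genes, 10 had a DRE and 0 a GAGA match, compared with 182 and 193 of all 1539 members.

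Chromatin and transcription genes were likewise mostly in the IDR class. Over 9 lists with 227 genes, 184 (81.1%) had an IDR summit, 20 (8.81%) a weaker region only and 23 neither. The weaker share of the whole group was near the 9.17% of all genes. However, only genes without an IDR summit can enter this class, and 33.4% of all genes had one. Of the group's genes without one, 20 were in the weaker class and 23 were not. Among all genes without one, 13.8% were in it. The replicates put 10.4% ± 0.509 of the 227 genes in the weaker class. Of the 20 genes of the Domino/Tip60 list, 16 had an IDR summit and 2 a weaker region only. The other 2, dom and Hcf, fell just outside the window, with an IDR summit 255 bp and 262 bp from a TSS. Arp6 encodes an actin-related protein of the exchange complex that YL-1 belongs to. Its region on X, from 15736897 to 15737396, had its summit 27 bp from the TSS and ranks 20521, 6825 and 14189, so it was high in replicate 2 only. Act87E, an actin gene on both this list and the muscle list, had a summit 225 bp from its TSS and ranks 6366, 9172 and 7244. The replicates' own lists put 0%, 20% and 5% of these genes in the weaker class, a wide spread. Among Polycomb and trithorax genes 4 of 27 were in the weaker class. Utx, a histone H3 demethylase, had ranks 8613, 6001 and 7340, and Pcl, a partner of the PRC2 methyltransferase, had 6973, 5527 and 8389. The DNA-binding factor pho, on chromosome 4, had 9802, 6974 and 7759. The Brahma complex subunit osa had 14718, 2595 and 28322, with the replicates far apart. Mediator had 4 of 29, among them MED11 and the kinase Cdk8. The helicase mle of the dosage compensation complex had ranks 6199, 12493 and 5212. Set1, a histone methyltransferase, had ranks 5615, 7078 and 10821.

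Genes of signalling, patterning and differentiation were near the background of all genes as a whole, and divided by list. Over 15 lists with 377 genes, 107 (28.4%) had an IDR summit, 39 (10.3%) a weaker region only and 231 neither, against 33.4% and 9.17% of all genes for the first 2 classes. The replicates put 11.4% ± 2.56 in the weaker class. In the 5 signalling lists 41.2% to 66.7% of genes had an IDR summit, above all genes, whereas the homeotic, patterning, homeobox, neuronal and muscle lists lay between 0% and 20.4%. Of the 39, 13 had a GAGA match, 13 an Initiator match and 2 a DRE, compared with 193, 243 and 182 of all 1539 members. In the EGF, FGF and Ras list 6 of 34 genes were in the weaker class. Raf, the kinase below Ras, had ranks 5903, 7194 and 5364. The transcription factor pnt had 4539, 7618 and 7699, and the receptor Egfr 7833, 10423 and 9499, and both carried GAGA and Initiator matches. The FGF ligand bnl had 11377, 4241 and 13771 and carried GAGA. Among Wnt and Hedgehog genes, the receptors fz, fz2 and ptc each carried GAGA. The region at ptc had ranks 10458, 8610 and 4174. In the Hippo pathway, the kinase wts had ranks 5899, 4245 and 7983 with a DRE, and the transcription factor sd 8962, 6464 and 6598 with GAGA. The BMP receptor tkv had 8598 and 15703 in replicates 1 and 3, and no overlapping region in replicate 2.

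In the neuronal and muscle lists, as in those of patterning, few genes had an IDR summit. Of 49 neuronal genes, 10 had an IDR summit and 8 (16.3%) a weaker region only (exact binomial 95% interval 7.32% to 29.7%), at 14.97% ± 5.14 in the replicates. The interval includes the 9.17% of all genes, and 4 genes were left in this class when stopping at rank 9000. The 8 were Dscam1, comt, dlg1, cpx, robo2, Syt1, Nlg2 and Appl, genes of cell adhesion, axon guidance and synaptic release. The summit at Dscam1 lay 0 bp from the TSS, with ranks 6458, 4093 and 9049. That at robo2 was listed in replicate 1 alone, at rank 4536. Of 27 muscle genes, 3 had an IDR summit and 4 a weaker region only, and both Act87E and Act57B carried a TATA box. The regulators of early patterning had few: dl, the maternal dorsal factor, in 1 of 20 genes, and ptc in 1 of 14 pair-rule and segment polarity genes. Homeobox factors had zfh2 and onecut, both on chromosome 4, in 2 of 57 genes, and the region at zfh2 overlapped none in replicate 3. None of the 8 homeotic genes had a region of either kind within 250 bp of a TSS, but 2 had a weaker region only with windows of 500 or 1000 bp.

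Genes of cuticle, smell, taste, detoxification and immunity had almost none. Over 5 lists with 464 genes, 4 had an IDR summit, 2 a weaker region only and 458 neither. The 2 were Cyp6d5, a cytochrome P450 that replicate 1 did not list, and PGRP-LE, an intracellular sensor of bacterial peptidoglycan with ranks 6730, 9860 and 8497. In the replicates' own lists 1.72% ± 0.777 of these genes were in the weaker class, against 8.90% ± 0.335 of all genes. Of 20 autophagy genes and 21 genes of Pol II elongation and pausing, 16 and 20 had an IDR summit and 0 a weaker region only. In the replicates' own lists, however, 3.33% ± 2.89 and 9.52% ± 4.76 of them were in the weaker class, the latter close to all genes. The 11 tubulin genes also had 0 in the weaker class, with 3.03% ± 5.25 in the replicates. At least 1 gene with a weaker region only was present in 37 of the 44 lists. Counted over genes without an IDR summit alone, the weaker share in 27 lists was above the 13.8% of all such genes.

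**Figure D5:**
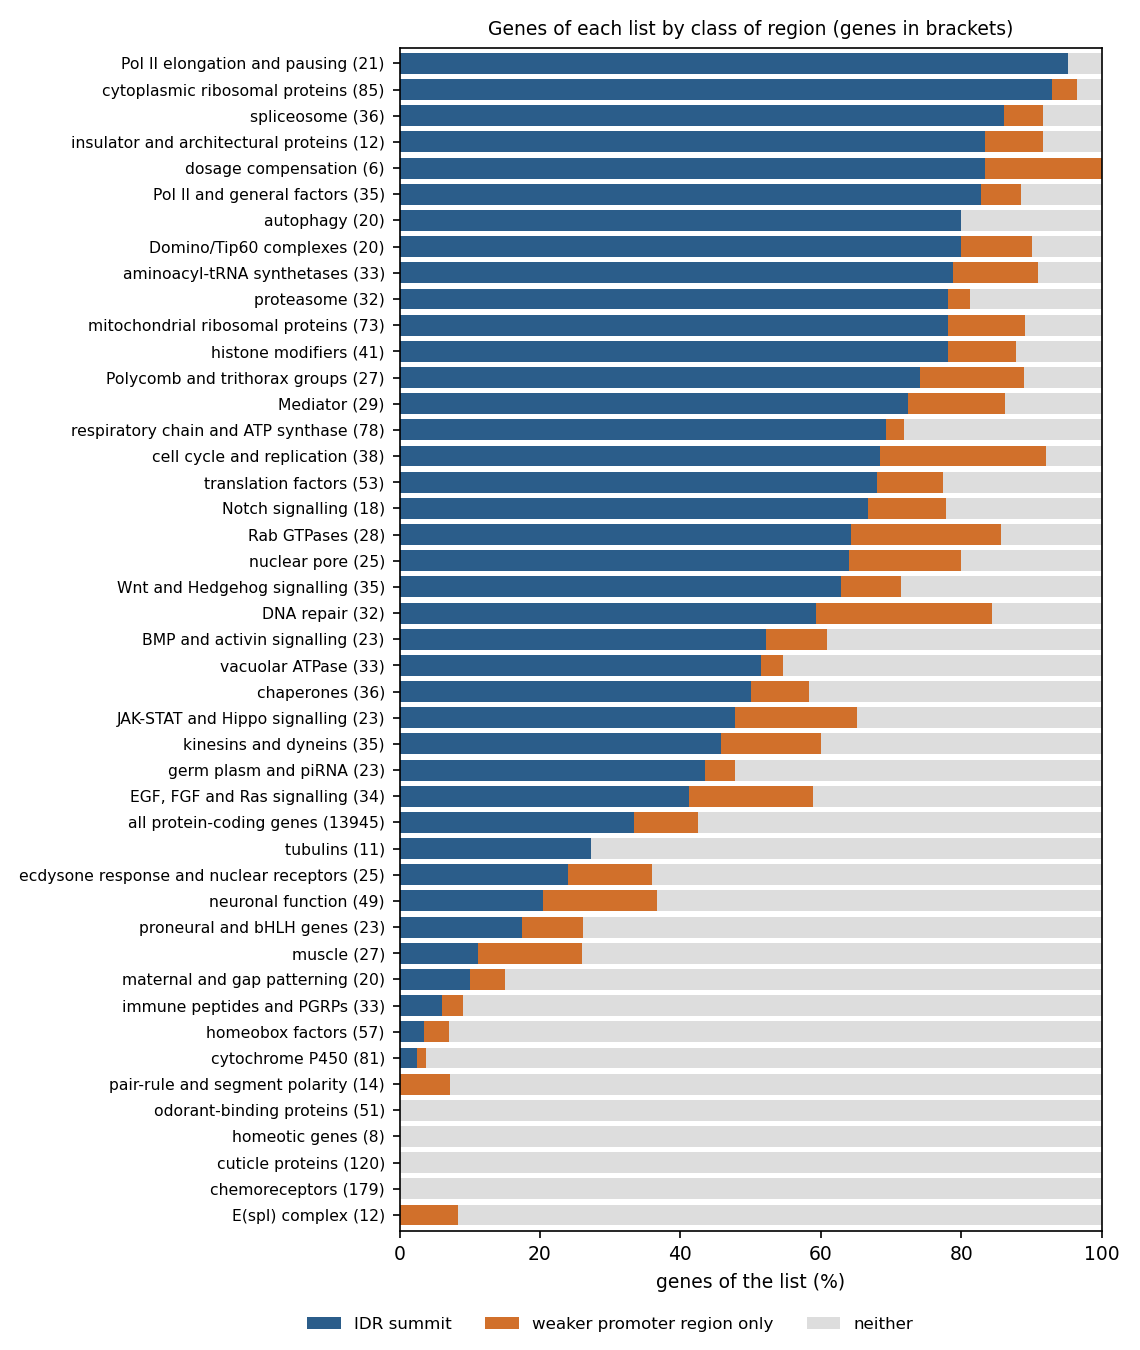
Share of the genes of each list (%, horizontal axis) with an IDR summit, with a weaker promoter region only and with neither; the number of genes stands in brackets. The middle, weaker segment is 9.17% for all protein-coding genes, 23.7% for cell cycle and replication, 25% for DNA repair and 0% for cuticle proteins and chemoreceptors.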

How the data were processed

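Lists of enriched regions (narrowPeak) from 3 biological replicates, from their pool and after IDR were used in the dm6 build. The aligner and caller were not given in the sources used here. Per region, the authors deposited a signal value, used here only to rank and describe regions within a list, a −log10 q-value and a summit offset in bp. The deposited signal is on a different scale in each library, and its depth is unknown. Chromatin was sheared to 200 to 800 bp, per the labels' protocols.

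TSSs came from Ensembl release 115 and sequences from RefSeq. Positions are 1-based. A replicate's rank for a member is that of its strongest overlapping region. Each replicate's own weaker regions (down to rank 12000, without overlap with its own IDR-sized top) gave means, SDs and the exact sign-flip test. Motif 6 and motif 7 were searched by their published consensus. Searches were separate, so a stretch could count for more than 1 motif. Of 687 symbols written in the 44 lists, 40 had no match and were left out. The members and lists were chosen with earlier results of these data known. The joined groups of lists were chosen after the counts by list were seen. Named genes were those nearest the 10 strongest members, the 10 members with the best worst rank, the 5 weakest, up to 3 strongest a list, and Domino/Tip60 genes with a weaker region only. Not every gene that this rule picks is described. Further list genes, including all in the weaker class of the cell cycle and neuronal lists and most of the repair list, were named after their values were seen. Sequences were those of the strongest member with each motif, and with none, among those on other arms than 2R whose window held at most 30 bases of exon. Of these, the promoters for the E-box, Zelda and motif 6 are not shown.

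Overlap, window and motif steps were checked on simulated regions and sites. Tools were pandas 2.3.3 and numpy 2.4.6 under Python 3.11.15, with scipy 1.17.1, matplotlib 3.10.9 and bedtools 2.31.1.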

Additional observations from a re-analysis of the deposited data

How the results depend on the processing

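Over all settings tried, members stayed below IDR or top promoter regions in DRE and motif 1 matches and above them in their share on X and median summit distance. Promoter windows of 100 bp and 1000 bp gave 927 and 2515 members. Stopping at rank 9000 gave 907 members and 825 genes with a weaker region only. Ranking by the mean over the 3 replicate lists gave 2695 members and 1999 genes. Leaving out a replicate from that mean gave 2644 to 2724 members and 1968 to 2025 genes.

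The share in the top 12000 of every replicate was 38.6% with the 1000 bp window, 55.3% when stopping at rank 9000 and 35.4% at rank 15000. It was 50.6% when overlap counted only from 50% of the region, 39.3% with overlapping members joined and 72.2% with the mean ranking. It was 84.4% to 88.9% in the remaining pair with a replicate left out. It was 1.30% for the IDR-sized top, 88.9% for all listed regions and 12.9% when summits had to lie within 100 bp.

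The median summit distance was 43 bp, 115 bp and 167 bp with windows of 100, 500 and 1000 bp. It was 68 bp at ranks to 9000, 79 bp to 15000, 83 bp with overlap counted from 50%, 73 bp with members joined. It was 78 bp with the mean ranking and 76.5 to 78 bp with a replicate left out. IDR or top promoter regions had 59 bp in the main ranking but 75 bp with the mean ranking and 75 to 76 bp with a replicate left out, so the difference there was small.

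The share on X was 19.7% and 18.5% with windows of 500 and 1000 bp and 20.4% at ranks to 9000. It was 20.1% with overlap from 50%, 20.5% with members joined and 20.4% with TSSs of all annotated genes. It was 22.2% with the mean ranking, and 21.0% to 22.7% with a replicate left out.

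The DRE share was 9.79% and 9.11% with windows of 500 and 1000 bp, 13.8% at ranks to 9000, 12.9% with overlap from 50% and 14.7% with the mean ranking. It was 14.3% to 15.2% with a replicate left out, and 9.16% within 150 bp of the summit. The motif 1 share was 7.44%, 5.56% and 5.45% with the 3 windows, 7.72% at ranks to 9000, 7.82% with overlap from 50% and 9.72% with the mean ranking. It was 9.32% to 10.6% with a replicate left out, and 5.46% within 150 bp of the summit.

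Of 264 alternative counts of weaker-only genes by list, 70 differed from the reported count by over 1.5 times. Cell cycle and replication had 6 to 11 such genes, DNA repair 6 to 9, Rab genes 3 to 6, neuronal genes 4 to 11 and cytochrome P450 genes 0 to 6. Lists with at least 1 such gene numbered 32 to 42.

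Settings added after seeing the data were the same alternatives for the other motifs, and promoters with 1 gene in the window, where the share on X was 20.3%. Among the other motifs, 2 values changed side against IDR or top promoter regions. Motif 6 was present at 4.52% of members at ranks to 9000, against 4.39%. The TATA box was present at 2.08% to 2.77% with a replicate left out, and its 2.08% without replicate 1 stood against 2.13%. The cause of these shifts was not tested. The lists of regions give no read counts, so depth sets no limit that can be stated, and 3 replicates allow no p below 0.25.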
